A study of Mus musculus with 8 samples.

Results

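The Zbtb genes encode transcription factors with a BTB/POZ domain at one end and zinc fingers of the Krüppel type at the other. They were taken here as all genes whose symbol starts with Zbtb followed by a digit, which gave 42 genes: 40 of 20512 named genes in the exon table and 40 of 18655 named genes in the intron table, with 38 in both. Zbtb18 and Zbtb11os1 were found in the exon table alone, and Zbtb20 and Zbtb32 in the intron table alone. Of the 42, 2 carry the family symbol without being BTB zinc finger genes: Zbtb8os, which encodes the tRNA ligase partner archease, and Zbtb11os1, a transcript named for the strand opposite Zbtb11.

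The study measured total RNA in neural progenitor cells (NPC) and in the embryonic stem cells (ESC) from which they were differentiated. The NPC samples came from a single clone, so what is particular to NPC and what is particular to that clone cannot be told apart. The ESC samples were the hybrid line F1-21.6 (129Sv-Cast/EiJ), kept on inactivated mouse embryonic fibroblasts with serum and leukaemia inhibitory factor. Each cell type had 2 biological replicates with 2 technical libraries each, and no genotype or drug was varied. Nothing in the labels says whether the biological replicates were separate cultures, so the p-values measure the spread between these samples. Nor do the labels say whether technical libraries entered the authors' exon comparison singly or combined. The spread behind the exon p-values may thus include that between technical libraries.

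The BTB domain lets these proteins pair and recruit corepressors such as the NCoR and BCOR complexes or the ubiquitin ligase scaffold Cul3, and the zinc fingers read the DNA sequence. Most members studied so far act as repressors. The family is best known for fate choices in lymphocytes, and some members also act in the developing brain, in the reading of methylated DNA and at telomeres.

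Exon levels are RPKM (reads per kilobase of exon, scaled to library size), a single pooled value per cell type in the authors' table, and carry no replicate spread. A gene was called when the authors' adjusted p was below 0.05 and its mean level was at least 1 RPKM. Intron levels, which follow unspliced RNA, were given for each biological replicate. Summed over genes, the intron reads recovered came to 6115885 and 5533498 in NPC replicates 1 and 2, against 6210741 and 6997782 in ESC replicates 1 and 2. Each sum exceeded the read total inferred as the scale of its RPKM values (5792056 and 5186790 in NPC, 5767704 and 6500767 in ESC). Reads in overlapping genes may be counted more than once, which was not tested. The labels fitted the cells: 7 of 7 tested markers of neural progenitors were called higher in NPC and 6 of 6 pluripotency markers lower. NPC also had all 4 astrocyte markers higher (summed level 762 RPKM in NPC and 9.12 in ESC), and 2 of 4 tested neuronal markers higher with 2 lower. Of 13 feeder fibroblast and mesenchyme markers, 2 were higher and 7 lower in NPC, none was at 0, and they summed to 56.1 RPKM in NPC and 90.2 in ESC. Of 4 blood cell markers only Itgam, an integrin of myeloid cells, reached the minimum level (0.490 RPKM in NPC and 1.72 in ESC). In bulk RNA, fewer cells of a type and less RNA per cell cannot be told apart, and the part of feeder, astrocyte or neuronal RNA in the Zbtb levels was not tested.

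NPC replicate 1 stood apart on introns. Odorant, vomeronasal and taste receptor genes, which neither cell type is known to use, had a median intron level of 0.748 RPKM in NPC replicate 1 and 0.0829 in NPC replicate 2, against 0.0295 and 0 in ESC replicates 1 and 2 (242 genes). On exons, the median of 1466 such genes was 0.279 RPKM in NPC and 0 in ESC. The NPC replicate 1 intron values of Zbtb7b (0.697), Zbtb8b (0.685), Zbtb16 (0.710), Zbtb7c (0.755), Zbtb34 (0.816), Zbtb48 (0.822) and Zbtb46 (0.916) lay near this level. Next above them came Zbtb8a (0.935) and Zbtb7a (0.999). With each column's receptor median subtracted, Zbtb7b, Zbtb34, Zbtb48, Zbtb8a and Zbtb7a were still called lower.

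Nearly all Zbtb genes were read at moderate levels in both cell types, and the family had no common direction. Of 38 genes above the minimum level, 9 were higher in NPC (23.7%, against 32.3% of all 12509 genes tested) and 14 were lower (36.8%, against 33.9%) in the authors' deposited table. Counting only changes of at least 2-fold, 7 were higher (18.4%, against 27.1% of all genes) and 9 lower (23.7%, against 27.0%). The median log2 fold change was -0.17 for the 38 Zbtb genes and -0.07 for all genes, and the median size of the change, whatever its direction, was 0.87 for the Zbtb genes and 1.22 for all genes. Levels of the 40 genes ran over a range of 0.524 to 94.9 RPKM in NPC (median 12.3) and 0.189 to 47.3 in ESC (median 13.7). The highest in NPC were Zbtb18, Zbtb1 and Zbtb41, and the highest in ESC were Zbtb43, Zbtb44 and Zbtb38, so none of the leading 3 was shared. Zbtb16 and Zbtb42 lay below the minimum mean of 1 RPKM and were not tested.

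**Figure D1:**
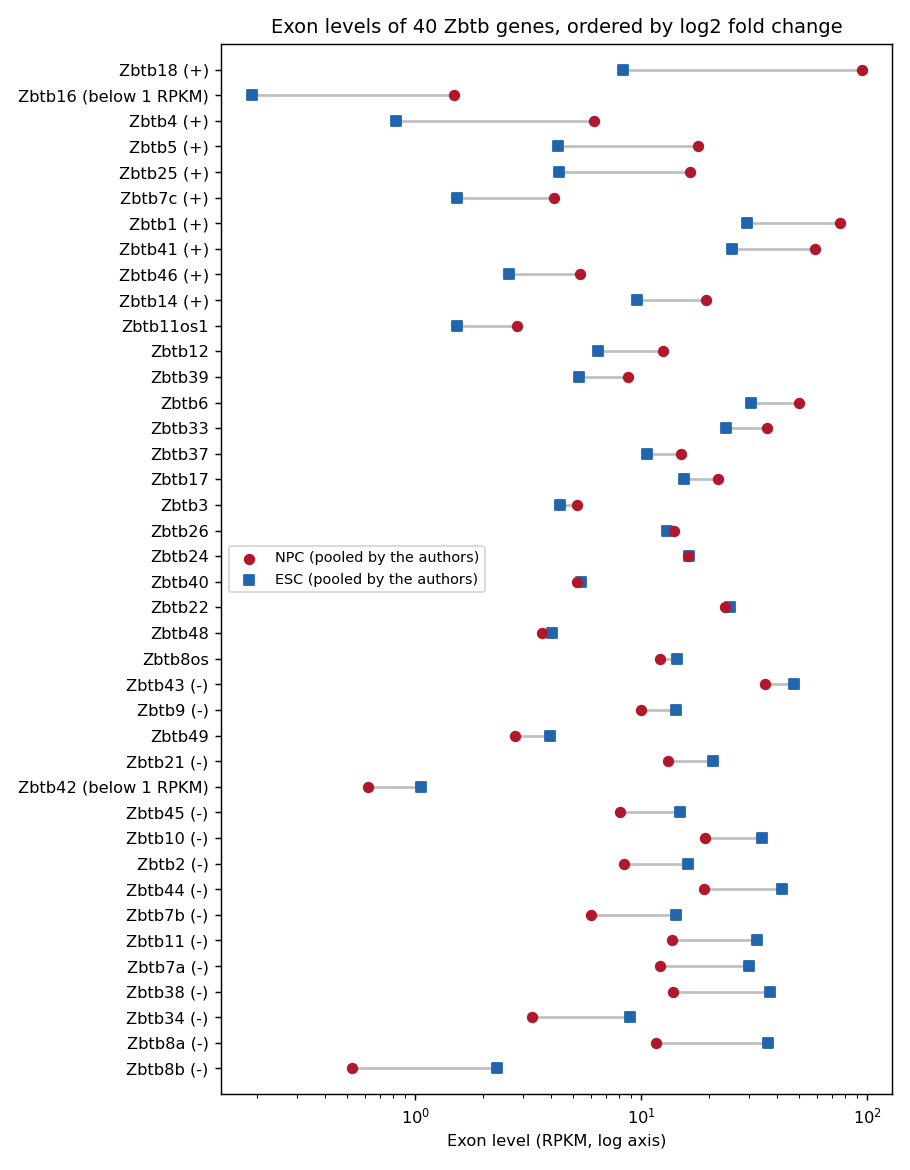
Exon levels of the 40 Zbtb genes of the exon table in NPC (circles) and ESC (squares), in RPKM on a log axis, 1 value per cell type as pooled by the authors and without error bars. Genes run by the authors' log2 fold change, with the highest in NPC on top; (+) and (-) mark the 9 genes called higher and the 14 called lower in NPC.

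The largest exon change in the family was that of Zbtb18 (also known as RP58), a repressor needed for the making of cortical neurons. Zbtb18 was at 94.9 RPKM in NPC and 8.28 RPKM in ESC. Its log2 fold change in the authors' deposited table was 3.34 (10.1-fold, adjusted p 1.55e-44). It ranked first of the 40 Zbtb genes in NPC and the 25th in ESC. Its exon start lies at position 179372538 of chromosome 1 (mm9), where the median log2 fold change over 726 tested genes was -0.27. No intron value of Zbtb18 was analysed here.

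The promoter of Zbtb18 is shown because it had the most CpG sites of any Zbtb window read here, 47 in 250 bases with 84% G and C. It is the 250 bases before the first of 5 annotated starts (RefSeq, GRCm38.p6, chr1:177442101-177442350, plus strand), with CpG sites in capitals.
Zbtb18: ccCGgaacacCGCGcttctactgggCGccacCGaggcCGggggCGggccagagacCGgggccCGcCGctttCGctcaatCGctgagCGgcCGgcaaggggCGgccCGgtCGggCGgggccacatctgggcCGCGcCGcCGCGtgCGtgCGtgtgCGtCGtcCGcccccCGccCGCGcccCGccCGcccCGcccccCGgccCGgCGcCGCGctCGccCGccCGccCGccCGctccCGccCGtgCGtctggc

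The letters ACATCTG, the core that the Zbtb18 protein is known to bind, were found in this window and in that of a later Zbtb18 start. Searched on both strands, they stood in 3 of 50 Zbtb windows (6%), the third being that of Zbtb46, and in 3.71% of all 32851 windows of the same length. This is a match of letters, with no binding measured.

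Zbtb20 is a repressor that specifies hippocampal neurons, acts in astrocyte formation and silences alpha-fetoprotein in the liver. It had the largest intron rise among the tested Zbtb genes on the log2(RPKM + 1) scale. Its introns, between 43147057 and 43618435 on chromosome 16 (mm9), were at 2.21 and 4.07 RPKM in NPC replicates 1 and 2, against 0.301 and 0.291 in ESC replicates 1 and 2. Both NPC replicates were above both ESC replicates, and above the receptor background. The log2 fold change was 1.64 ± 0.22 (SE, limma on log2(RPKM + 1), adjusted p 0.000164). With the receptor background subtracted the call stood (1.45, adjusted p 0.00129). Without NPC replicate 2 the gene fell under the minimum mean and was not tested. Of 2 genes on record as its targets, Pou3f2, a neural POU factor, was at 49.9 RPKM in NPC and 0.265 in ESC and was called higher. Afp, alpha-fetoprotein, stayed below the minimum level (0.315 RPKM in NPC and 0.0475 in ESC).

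Zbtb16 (PLZF), known from natural killer T cells, spermatogonial stem cells and early neural progenitors, was low in both cell types. It was at 1.49 exon RPKM in NPC and 0.189 in ESC, and although the authors' deposited table lists a log2 fold change of 2.78 (adjusted p 0.000104), its mean was under the minimum. Its introns were at 0.710 and 0.218 RPKM in NPC replicates 1 and 2, against 0.0697 and 0.0132 in ESC replicates 1 and 2. The higher of the NPC intron values lay at the receptor background of its library. Fgfr3, a growth factor receptor linked to Zbtb16, was at 39.5 RPKM in NPC and 1.14 in ESC and was called higher.

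Zbtb45, reported to act in glial differentiation of neural progenitors, was lower in NPC. Its exons were at 8.09 RPKM in NPC and 14.9 in ESC, a log2 fold change of -0.97 in the authors' deposited table (adjusted p 0.0178). The intron level was 2.39 and 2.37 RPKM in NPC replicates 1 and 2, against 7.83 and 8.37 in ESC replicates 1 and 2. The intron change was -1.43 ± 0.35 (SE, limma, adjusted p 0.00601). The intron call was lost when either ESC replicate was left out (adjusted p 0.233 without ESC replicate 1 and 0.269 without ESC replicate 2).

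Members that bind methylated CpG through their zinc fingers are Zbtb33 (Kaiso), Zbtb4 and Zbtb38, and they did not move together. Zbtb4 was higher in NPC, at 6.16 exon RPKM in NPC and 0.825 in ESC, with a log2 fold change of 2.77 in the authors' deposited table (adjusted p 5.17e-13). Its introns were at 1.99 and 3.03 RPKM in NPC replicates 1 and 2, against 0.576 and 0.391 in ESC replicates 1 and 2. Both NPC replicates were above both ESC replicates, and the intron change was 1.23 ± 0.20 (SE, limma, adjusted p 0.000515). The call stood with the receptor background subtracted (1.02, adjusted p 0.0282). Without NPC replicate 2, Zbtb4 introns fell under the minimum mean and were not tested. Zbtb38 was lower in NPC, at 13.8 exon RPKM in NPC and 37.1 in ESC, with a log2 fold change of -1.55 in the authors' deposited table (adjusted p 2.31e-09). In ESC it was the third highest Zbtb gene, and in NPC the 17th. On introns the gene was at 1.09 and 0.456 RPKM in NPC replicates 1 and 2, against 1.48 and 1.86 in ESC replicates 1 and 2 (log2 change -0.61 ± 0.21, SE, limma, adjusted p 0.0313). That intron call was lost without ESC replicate 1 (adjusted p 0.0627), without ESC replicate 2 (0.203), without NPC replicate 2 (0.0765), with the columns centred on their medians (0.623), with no mean-variance trend (0.127), with no minimum mean (0.111) and with voom weights (0.0673). Zbtb33 passed neither test. Its exons were at 36.2 RPKM in NPC and 23.8 in ESC (log2 fold change 0.45, adjusted p 0.132 in the authors' deposited table), and its introns at 2.35 and 4.34 RPKM in NPC replicates 1 and 2, against 2.36 and 2.74 in ESC replicates 1 and 2.

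Zbtb33 lies on the X chromosome, where the median exon log2 fold change of 493 tested genes was -0.35. Ctnnd1, the catenin that binds Kaiso, was at 155 RPKM in NPC and 119 in ESC and was not called. The letters TCCTGCNA, the unmethylated site that Kaiso is known to bind, stood on either strand in 4 of 50 Zbtb windows (8%) and in 4.03% of all windows: 3 of the 4 belonged to later starts of Zbtb18 that lie close together, and the other to Zbtb37.

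Methyl-CpG binding genes outside the family were also divided. Of 9 such genes, all tested, 3 were higher in NPC and 2 lower, beside 32.3% higher and 33.9% lower over all genes. Their median log2 fold change was 0.11 in the authors' deposited table. Mbd2, which recruits the NuRD complex, was at 38.9 RPKM in NPC and 10.6 in ESC. Mbd5 was at 10.5 RPKM in NPC and 3.76 in ESC. On the other side, Uhrf1, which brings maintenance methylation to replicating DNA, was at 37.2 RPKM in NPC and 129 in ESC.

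Zbtb1 and Zbtb25 lie head to head on chromosome 12, with starts 802 bp apart (positions 77471253 and 77470451 in mm9), and both rose on exons. Zbtb1, needed for lymphoid development, was at 75.6 exon RPKM in NPC and 29.4 in ESC, with a log2 fold change of 1.20 in the authors' deposited table (adjusted p 3.54e-07). Zbtb25, a little studied zinc finger gene, was at 16.4 exon RPKM in NPC and 4.34 in ESC, with a log2 fold change of 1.74 (adjusted p 3.64e-05) in the authors' deposited table. The 453 tested genes of chromosome 12 had a median of 0.39, the highest of any chromosome, and set against it the changes were 0.81 for Zbtb1 and 1.34 for Zbtb25. The part of the chromosome in these changes was not tested.

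On introns the neighbours differed in their calls. Zbtb1 was at 4.37 and 5.84 RPKM in NPC replicates 1 and 2, against 1.42 and 1.496 in ESC replicates 1 and 2. The change was 1.30 ± 0.25 (SE, limma, adjusted p 0.00166), and the call was lost without ESC replicate 1 (0.278), without ESC replicate 2 (0.262) and with the receptor background subtracted (0.0828), while the log2 change stayed between 1.13 and 1.81 in every setting. Zbtb25 introns were at 2.30 and 3.01 RPKM in NPC replicates 1 and 2, against 2.51 and 2.53 in ESC replicates 1 and 2. The groups overlapped, and the log2 change was 0.05 ± 0.23 (SE, limma, adjusted p 0.874). With the columns centred on their medians, Zbtb25 introns were called higher (0.45, adjusted p 0.0333). The difference between the neighbours was not tested.

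The promoters of this pair are shown because the genes share the interval between their starts. Both are 250 bases before a start, read in the direction of the gene (RefSeq, GRCm38.p6), chr12:76370270-76370519 on the plus strand for Zbtb1 and chr12:76369561-76369810 on the minus strand for Zbtb25, with CpG sites in capitals. They hold 33 and 34 CpG sites, and neither holds the Zbtb18 or the Kaiso letters.
Zbtb1: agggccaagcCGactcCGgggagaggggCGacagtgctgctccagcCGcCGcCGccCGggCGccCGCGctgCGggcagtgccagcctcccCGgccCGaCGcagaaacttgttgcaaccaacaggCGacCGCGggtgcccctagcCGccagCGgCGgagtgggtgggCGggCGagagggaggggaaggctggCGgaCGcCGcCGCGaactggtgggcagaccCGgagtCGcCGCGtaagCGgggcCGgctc
Zbtb25: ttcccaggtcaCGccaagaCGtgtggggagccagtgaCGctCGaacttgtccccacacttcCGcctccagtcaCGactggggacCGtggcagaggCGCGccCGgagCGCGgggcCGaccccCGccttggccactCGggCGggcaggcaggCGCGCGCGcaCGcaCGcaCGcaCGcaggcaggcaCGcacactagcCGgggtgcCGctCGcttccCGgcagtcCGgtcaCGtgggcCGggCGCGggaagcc

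Another 5 genes were higher in NPC on exons. Zbtb5, described as a repressor of the cell cycle inhibitor Cdkn1a, was at 17.8 exon RPKM in NPC and 4.29 in ESC (log2 fold change 1.91, adjusted p 7.35e-11 in the authors' deposited table). Its introns did not follow, at 1.26 and 1.07 RPKM in NPC replicates 1 and 2, against 1.17 and 1.01 in ESC replicates 1 and 2 (0.05 ± 0.18, SE, limma, adjusted p 0.826). Cdkn1a itself was at 2.88 RPKM in NPC and 41.2 in ESC and was called lower.

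Zbtb41 was the third highest Zbtb gene in NPC, at 58.5 exon RPKM in NPC and 25.1 in ESC (log2 fold change 1.06, adjusted p 1.32e-05 in the authors' deposited table). Its introns overlapped, at 2.61 and 4.15 RPKM in NPC replicates 1 and 2, against 3.65 and 3.88 in ESC replicates 1 and 2. The intron change was -0.14 ± 0.31 (SE, limma, adjusted p 0.715) and changed sign with the columns centred (0.25). Without NPC replicate 2 it was called lower (-0.40, adjusted p 0.0284), and without NPC replicate 1 it was 0.11 (adjusted p 0.374).

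Zbtb7c was at 4.11 exon RPKM in NPC and 1.53 in ESC (log2 fold change 1.29, adjusted p 0.00829 in the authors' deposited table). Its introns were below the minimum mean, at 0.755 and 0.338 RPKM in NPC replicates 1 and 2, against 0.422 and 0.385 in ESC replicates 1 and 2. NPC replicate 1 alone was above the others, at the receptor background of that library.

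Zbtb46, a marker of classical dendritic cells, was at 5.36 exon RPKM in NPC and 2.59 in ESC (log2 fold change 0.90, adjusted p 0.0294 in the authors' deposited table). Its introns too were below the minimum mean, at 0.916 and 0.452 RPKM in NPC replicates 1 and 2, against 0.362 and 0.313 in ESC replicates 1 and 2. Zbtb14 was at 19.3 exon RPKM in NPC and 9.62 in ESC (log2 fold change 0.85, adjusted p 0.00645 in the authors' deposited table). Its introns went the other way, at 1.32 and 1.03 RPKM in NPC replicates 1 and 2, against 3.06 and 2.10 in ESC replicates 1 and 2. This intron fall (-0.71 ± 0.21, SE, limma, adjusted p 0.0152) rested on 16 to 53 reads per replicate. It was lost without ESC replicate 1 (0.325), without ESC replicate 2 (0.0755), without NPC replicate 2 (0.0557), with centred columns (-0.31, adjusted p 0.347), with no mean-variance trend (0.0713), with no minimum mean (0.0698) and with voom weights (0.123).

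Among the genes that fell in NPC, the Zbtb7 pair Zbtb7a and Zbtb7b fell on exons and introns, while Zbtb7c was called higher on exons. Zbtb7a (LRF or Pokemon), a repressor that silences fetal globin and acts in B and T cell choice, had the largest intron fall of the family on the log2(RPKM + 1) scale. Zbtb32 fell further with 0.1 RPKM added (-3.36, against -2.77 for Zbtb7a), with voom weights (-3.43 against -2.84) and without NPC replicate 1 (-2.66 against -1.92). Zbtb7a introns were at 0.999 and 1.92 RPKM in NPC replicates 1 and 2, against 9.91 and 10.2 in ESC replicates 1 and 2 (-2.19 ± 0.34, SE, limma, adjusted p 0.000420). Zbtb7a exons were at 12.1 RPKM in NPC and 30.1 in ESC (log2 fold change -1.43, adjusted p 1.76e-07 in the authors' deposited table). Zbtb7b (ThPOK), which sets the helper T cell fate, was at 5.999 exon RPKM in NPC and 14.3 in ESC (log2 fold change -1.35, adjusted p 6.33e-05 in the authors' deposited table). The intron level was 0.697 and 0.474 RPKM in NPC replicates 1 and 2, against 3.07 and 3.81 in ESC replicates 1 and 2 (-1.48 ± 0.19, SE, limma, adjusted p 0.000127). For both genes, every NPC replicate was below every ESC replicate.

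Zbtb32, a repressor induced in activated lymphocytes, was measured on introns only. It was at 1.51 and 0.130 RPKM in NPC replicates 1 and 2, against 6.18 and 6.10 in ESC replicates 1 and 2 (-2.08 ± 0.32, SE, limma, adjusted p 0.000388). Its NPC values rest on 13 reads in replicate 1 and 1 read in replicate 2, against 53 and 59 reads in ESC replicates 1 and 2. The NPC replicates stood far apart, and ESC was above both.

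The neighbours Zbtb8a and Zbtb8b on chromosome 4, whose starts lie 62790 bp apart in mm9, had the largest exon falls. Zbtb8b was at 0.524 exon RPKM in NPC and 2.29 in ESC (log2 fold change -2.34, adjusted p 0.00209 in the authors' deposited table), and its introns stayed below the minimum mean, at 0.685 and 0.0957 RPKM in NPC replicates 1 and 2, against 0.430 and 0.401 in ESC replicates 1 and 2. Zbtb8a was at 11.7 exon RPKM in NPC and 36.4 in ESC (log2 fold change -1.76, adjusted p 5.88e-08 in the authors' deposited table). Its introns were at 0.935 and 0.765 RPKM in NPC replicates 1 and 2, against 3.30 and 3.05 in ESC replicates 1 and 2 (-1.17 ± 0.19, SE, limma, adjusted p 0.000495). Zbtb8os, on the other side of Zbtb8a, was called in neither table, at 12.1 exon RPKM in NPC and 14.4 in ESC.

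On chromosome 2, Zbtb34 and Zbtb43 have starts 37208 bp apart in mm9, and both were lower on exons. Zbtb34 was at 3.30 exon RPKM in NPC and 8.93 in ESC (log2 fold change -1.57, adjusted p 7.33e-07 in the authors' deposited table). On introns the gene was at 0.816 and 0.756 RPKM in NPC replicates 1 and 2, against 2.06 and 1.92 in ESC replicates 1 and 2 (-0.74 ± 0.18, SE, limma, adjusted p 0.00510), a call lost without ESC replicate 1 (0.0720) and with centred columns (-0.35, adjusted p 0.222). Zbtb43, the most highly expressed Zbtb gene of ESC, differed less, at 35.4 exon RPKM in NPC and 47.3 in ESC (log2 fold change -0.55, adjusted p 0.0428 in the authors' deposited table). Its introns were at 2.03 and 3.72 RPKM in NPC replicates 1 and 2, against 5.80 and 5.73 in ESC replicates 1 and 2, and did not pass (limma, adjusted p 0.0649). That p came below 0.05 without NPC replicate 1 and without NPC replicate 2, and not when either ESC replicate was left out.

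Zbtb44, the second highest Zbtb gene of ESC, was at 19.0 exon RPKM in NPC and 42.0 in ESC (log2 fold change -1.29, adjusted p 3.66e-08 in the authors' deposited table). The intron level was 1.46 and 1.02 RPKM in NPC replicates 1 and 2, against 5.85 and 5.94 in ESC replicates 1 and 2 (-1.63 ± 0.25, SE, limma, adjusted p 0.000395). Both NPC intron values lay below both ESC values, and the ESC replicates differed little.

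Zbtb11, which is needed for neutrophil development in zebrafish, was at 13.7 exon RPKM in NPC and 32.5 in ESC (log2 fold change -1.41, adjusted p 8.08e-09 in the authors' deposited table). Its introns were at 2.01 and 4.16 RPKM in NPC replicates 1 and 2, against 5.95 and 7.63 in ESC replicates 1 and 2, all NPC values below all ESC values, but did not pass (-0.97 ± 0.39, SE, limma, adjusted p 0.0572). The test gave -0.59 without NPC replicate 1 (adjusted p 0.0436) and -1.36 without NPC replicate 2 (0.00437), which pass, and -1.13 without ESC replicate 1 (0.456) and -0.82 without ESC replicate 2 (0.596), which do not. Zbtb11os1, with a start 813 bp away, was at 2.82 exon RPKM in NPC and 1.54 in ESC and was not called (adjusted p 0.451 in the authors' deposited table). The sources used here do not give whether the exon counts used strand, so reads of this gene and of Zbtb11 may not be separable.

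Zbtb2, known as a reader of unmethylated CpG in embryonic stem cells, was at 8.41 exon RPKM in NPC and 16.1 in ESC (log2 fold change -1.06, adjusted p 0.00194 in the authors' deposited table). Its introns overlapped, at 1.16 and 1.97 RPKM in NPC replicates 1 and 2, against 1.83 and 2.25 in ESC replicates 1 and 2 (-0.26 ± 0.21, SE, limma, adjusted p 0.332). The sign turned with centred columns (0.14), and without NPC replicate 2 the gene was called lower (-0.49, adjusted p 0.0308). Falls of less than 2-fold were also called on exons for Zbtb10, Zbtb21 and Zbtb9, with log2 fold changes between -0.996 and -0.667 in the authors' deposited table.

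Another 4 genes were called lower on introns while their exons were not called. Zbtb26 introns were at 2.73 and 2.81 RPKM in NPC replicates 1 and 2, against 9.66 and 10.8 in ESC replicates 1 and 2 (-1.57 ± 0.40, SE, limma, adjusted p 0.00757), yet its exons were at 14.0 RPKM in NPC and 13.0 in ESC. Zbtb48 (TZAP), which binds telomeric repeats, had introns at 0.822 and 0.918 RPKM in NPC replicates 1 and 2, against 3.42 and 2.96 in ESC replicates 1 and 2 (-1.16 ± 0.19, SE, limma, adjusted p 0.000556), with exons at 3.65 RPKM in NPC and 4.02 in ESC. Both genes had every NPC replicate below every ESC replicate on introns.

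Zbtb49 introns were at 1.17 and 2.16 RPKM in NPC replicates 1 and 2, against 3.57 and 3.95 in ESC replicates 1 and 2 (-0.86 ± 0.25, SE, limma, adjusted p 0.0154), with exons at 2.76 RPKM in NPC and 3.94 in ESC. Zbtb22 introns were at 1.91 and 1.42 RPKM in NPC replicates 1 and 2, against 4.15 and 5.10 in ESC replicates 1 and 2 (-1.08 ± 0.25, SE, limma, adjusted p 0.00495), with exons at 23.4 RPKM in NPC and 24.7 in ESC. The Zbtb22 values rest on 543 bases of intron and only 4 to 18 reads per replicate. Of these 4 calls, that of Zbtb48 held without any single replicate. Those of Zbtb26, Zbtb49 and Zbtb22 were lost without ESC replicate 1 (adjusted p 0.283, 0.187 and 0.104) and without ESC replicate 2 (0.331, 0.261 and 0.192). That of Zbtb49 was also lost with no trend (0.0569), with no minimum mean (0.0606) and with the receptor background subtracted (0.0613), and that of Zbtb22 with voom weights (0.124) and with centred columns (0.0665).

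Of the 38 tested genes, 15 were not called on exons, with log2 fold changes between -0.68 and 0.77 in the authors' deposited table. Zbtb17 (Miz1), the partner through which Myc represses, was at 21.9 exon RPKM in NPC and 15.4 in ESC. Zbtb24, mutated in a form of the immunodeficiency, centromere instability and facial anomalies (ICF) syndrome, was at 16.2 RPKM in both cell types. Zbtb6 was among the highest of these, at 49.8 exon RPKM in NPC and 30.6 in ESC (adjusted p 0.0527 in the authors' deposited table). The other members not yet described were Zbtb3, Zbtb12, Zbtb37, Zbtb39 and Zbtb40, at 5.19 to 15.0 exon RPKM in NPC and 4.36 to 10.6 in ESC. A p above the threshold does not show that these genes were equal in NPC and ESC. Zbtb42, below the minimum, was at 0.617 exon RPKM in NPC and 1.06 in ESC, and like Zbtb12 was listed at 0 on introns, while Zbtb3 had 2 intron reads in all.

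Short lists of genes linked to family members by a shared syndrome, as partners or targets, or through telomeres were set beside them. The other ICF syndrome genes were all 3 lower in NPC, beside 33.9% of all genes. Dnmt3b, the de novo DNA methyltransferase, was at 2.09 RPKM in NPC and 89.9 in ESC. Hells, a chromatin remodeller, was at 26.9 RPKM in NPC and 814 in ESC, and Cdca7, its partner, at 27.7 in NPC and 107 in ESC. A further list held partners and targets of family members. Tert, Terf1 and Terf2 were put on it for telomeres, not as partners or targets. Of its 11 tested genes, 2 were higher (Fgfr3 and Pou3f2) and 5 lower, beside 32.3% higher and 33.9% lower over all genes. The median over the 11 was a log2 fold change of -0.34 in the authors' deposited table. Among the lower ones were Mycn, the Myc paralogue of stem and progenitor cells, at 1.98 RPKM in NPC and 105 in ESC, Tert, the telomerase reverse transcriptase, at 0.215 in NPC and 5.58 in ESC, and Terf1, a telomere repeat binder, at 17.3 in NPC and 106 in ESC. Myc was at 5.94 RPKM in NPC and 6.95 in ESC and Max, their common partner, at 107 in NPC and 91.1 in ESC, and neither was called.

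Of 33 Zbtb genes that averaged at least 1 RPKM, limma called 3 higher in NPC (Zbtb20, Zbtb1 and Zbtb4; 9.09%, against 13.2% of all 8811 genes tested) and 13 lower (39.4%, against 34.0%). The median log2 change was -0.51 for the Zbtb genes and -0.43 for all genes. The direction of the median over all genes rests on the minimum level, since it was 0.18 at a minimum mean of 0.25 RPKM (16503 genes) and 0.22 with no minimum (18393 genes). With each column centred on its median, which moved the median of all genes to -0.04, the family split into 8 higher (24.2%, against 24.8% of all genes) and 9 lower (27.3%, against 24.6%), with a Zbtb median of -0.11. Centring added Zbtb17, Zbtb24, Zbtb25, Zbtb33 and Zbtb37 to the higher genes, and took Zbtb14, Zbtb22, Zbtb34 and Zbtb38 from the lower ones. Calls of Zbtb7a, Zbtb7b, Zbtb8a, Zbtb32, Zbtb44 and Zbtb48 held with each replicate left out in turn and with centred columns. Leaving out replicates moved the counts to between 1 and 6 higher and between 6 and 19 lower. Leaving out NPC replicate 1 gave 6 higher and 17 lower genes, and leaving out NPC replicate 2 gave 1 higher and 19 lower. There were 2 higher and 6 lower genes without ESC replicate 1, and 2 higher and 7 lower when ESC replicate 2 was dropped. Calls over all genes moved likewise. Without NPC replicate 1, 25.1% of all genes were higher and 45.4% lower, and without NPC replicate 2 these shares were 9.95% and 63.0%. Dropping ESC replicate 1 gave 8.37% higher and 12.6% lower, and dropping ESC replicate 2 gave 7.77% higher and 11.9% lower.

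**Figure D2:**
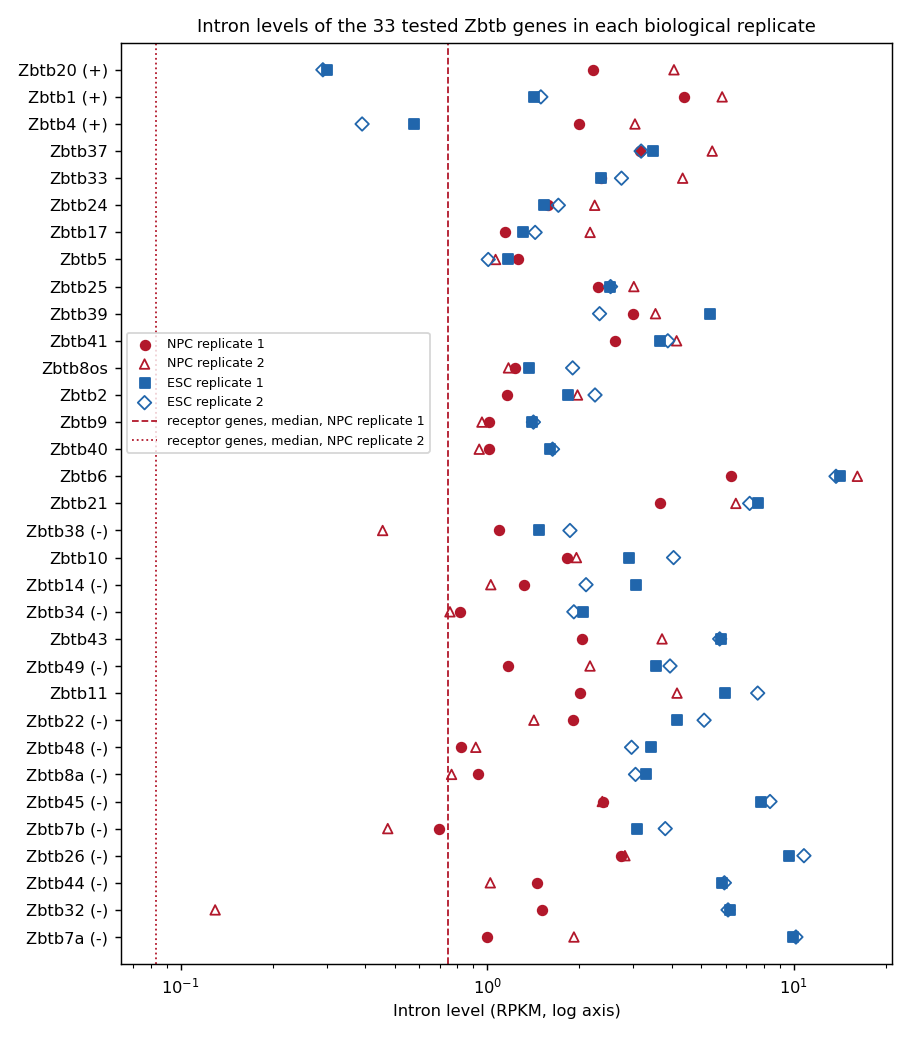
Intron levels of the 33 tested Zbtb genes in RPKM on a log axis, with 1 point per biological replicate (NPC circles and triangles, ESC squares and diamonds) and genes ordered by the limma log2 change; (+) and (-) mark the 3 genes called higher and the 13 called lower in NPC. The dashed and dotted lines are the receptor gene medians of NPC replicate 1 (0.748) and replicate 2 (0.0829); those of ESC (0.0295 and 0) lie left of the axis.

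Exon and intron changes can be set side by side for 31 Zbtb genes tested in both tables. Both come from the same RNA, so one is no independent check of the other. Across these genes Pearson's r was 0.718 and Spearman's rho 0.688, and 26 of 31 (83.9%) had the same sign. Over all 8380 genes tested in both, r was 0.804, rho 0.831 and the share of equal signs 80.8%. Genes are not replicates, and these are descriptions only. Both tests called Zbtb1 and Zbtb4 higher, and Zbtb7a, Zbtb7b, Zbtb8a, Zbtb34, Zbtb38, Zbtb44 and Zbtb45 lower. A further 9 genes were called on exons only, 4 on introns only and 8 on neither, and Zbtb14 was called in opposite directions. Of the 31, 6.45% were thus higher in both and 22.6% lower in both, against 12.3% and 26.1% of all genes. Calls on exons only made up 29.0% of the 31 and 26.3% of all genes, calls on introns only 12.9% and 8.03%, neither 25.8% and 26.6%, and opposite calls 3.23% and 0.668%. The exon log2 change exceeded the intron one by at least 1 in 6 genes (Zbtb5, Zbtb25, Zbtb14, Zbtb4, Zbtb26 and Zbtb41; 19.4%, against 22.3% of all genes). The reverse was seen in 0 of 31 Zbtb genes and in 9.87% of all genes. The scales differ, since 1 RPKM was added before the log on introns. Exon values of single replicates were not at hand, so the difference was not tested.

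**Figure D3:**
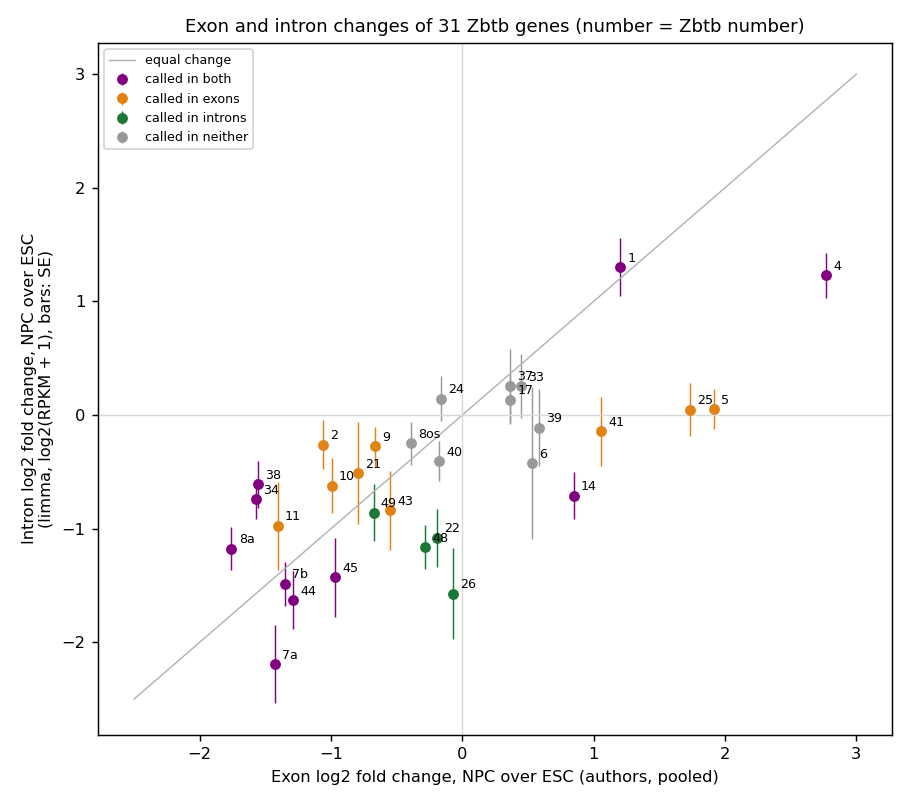
Exon log2 fold change (authors' pooled comparison, no error) against intron log2 change (limma on log2(RPKM + 1), bars are SE, 2 NPC and 2 ESC replicates) for the 31 Zbtb genes tested in both, each marked by its Zbtb number. Zbtb1 and Zbtb4 are called higher in both, 7 genes are called lower in both, and Zbtb5 and Zbtb25 lie near 0 on introns with exon changes of 1.91 and 1.74.

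BTB zinc finger genes under other symbols were divided too. Of 8 tested, 4 were higher in NPC and 2 lower, beside 32.3% higher and 33.9% lower over all genes. Their median log2 fold change was 0.60 in the authors' deposited table. Bcl6, the germinal centre repressor that also acts in neurogenesis, was at 10.8 RPKM in NPC and 1.28 in ESC, and Zfp651 at 11.6 in NPC and 1.096 in ESC. Hic2 was at 3.60 RPKM in NPC and 44.1 in ESC, and Bcl6b, the closest relative of Bcl6, at 0.502 in NPC and 5.54 in ESC. Bcl6 and Bcl6b were thus called in opposite directions.

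Corepressors that BTB proteins recruit, listed with the ubiquitin ligase scaffold Cul3, summed to 1717 RPKM in NPC and 1975 in ESC over 21 genes. Of these sums, Cul3 alone gave 233 RPKM in NPC and 428 in ESC. The 38 tested Zbtb genes summed to 702 RPKM in NPC and 617 in ESC. Of the 21 listed genes, all tested, 5 were higher in NPC and 8 lower, beside 32.3% higher and 33.9% lower over all genes. Their median log2 fold change was -0.33 in the authors' deposited table. In 2 sets of paralogues, chosen after their values were seen, members were called in opposite directions. Ctbp1 was at 125 RPKM in NPC and 52.9 in ESC, and Ctbp2 at 28.2 in NPC and 108 in ESC. Mta1, a NuRD subunit, was at 83.4 RPKM in NPC and 39.9 in ESC, and Mta3 at 9.19 in NPC and 44.4 in ESC, while Mta2 was not called. In other sets some members were called lower and the rest not called, with Sin3a lower but not Sin3b, and Hdac1 lower but neither Hdac2 nor Hdac3. Bcor, the corepressor first found with Bcl6, was lower at 13.4 RPKM in NPC and 21.2 in ESC, and Cul3 was called lower too.

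**Figure D4:**
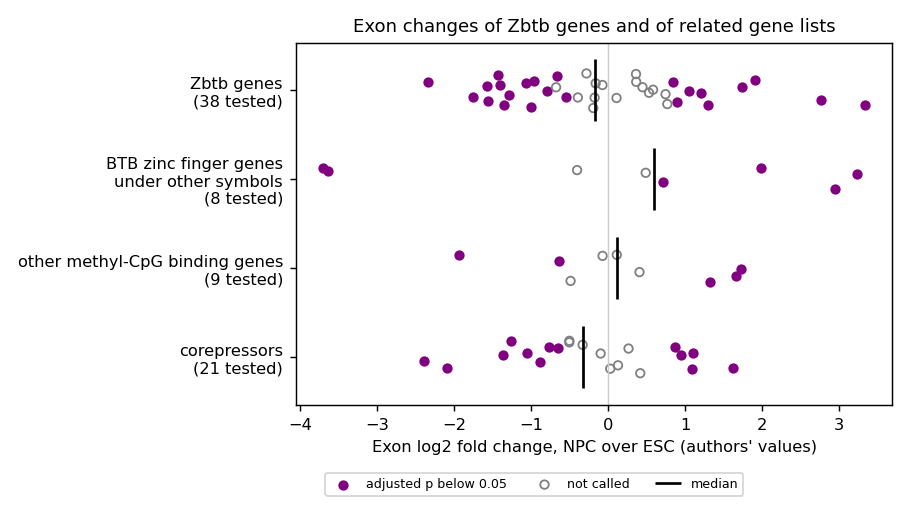
Exon log2 fold changes, NPC over ESC, in the authors' deposited table for the 38 tested Zbtb genes and 3 related lists, with filled points for genes with an adjusted p below 0.05 and a black line at each median (-0.17, 0.60, 0.11 and -0.33 from top to bottom). Each point is 1 gene, and its height within a row carries no meaning.

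Most Zbtb promoters were rich in CpG. RefSeq windows (GRCm38.p6) were matched for 37 of the 42 genes, 50 windows in all, and the 250 bases before each start held a median of 19.5 CpG sites, against 6 over all 32851 windows. Their median share of G and C was 64.6%, against 52.4%. Windows were counted, not genes, and the windows of all genes were not limited to genes read in these cells. A trait of the family was therefore not tested. Both higher and lower genes had windows rich in CpG, as with the first start of Zbtb18 above and with Zbtb7a. The Zbtb7a promoter is shown as that of a gene called lower in both tables. It holds 26 CpG sites, in capitals (chr10:81136021-81136270, plus strand).
Zbtb7a: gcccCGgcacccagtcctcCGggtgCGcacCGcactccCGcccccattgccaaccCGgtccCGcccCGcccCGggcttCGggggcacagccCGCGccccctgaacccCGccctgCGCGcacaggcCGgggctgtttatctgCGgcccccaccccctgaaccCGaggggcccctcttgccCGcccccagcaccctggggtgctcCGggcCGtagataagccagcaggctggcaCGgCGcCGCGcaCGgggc

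Windows with 9 CpG sites or fewer were found for the 4 later starts of Zbtb18 (0 to 2), Zbtb20 (3) and Zbtb7b (5 and 7). Windows this poor in CpG were also found for Zbtb46 (0), Zbtb8a (8), Zbtb32 (2 and 5), Zbtb3 (8 and 9) and a single start of Zbtb38 (6). Among these were genes called in both directions.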

How the data were processed

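Total RNA depleted of ribosomal RNA was sequenced as 50 bp reads from 8 libraries. The authors deposited 2 tables. In the exon table, the authors computed the log2 fold change (NPC over ESC) and the adjusted p-value of each gene with their own comparison before they deposited them, and pooled RPKM per cell type. The submitters' processing notes name DESeq2 1.10.0 and mm9. Aligner, counter, annotation and use of strand: not given in the sources used here. Intron values, deposited by the authors with no unit named, come as 1 column per biological replicate, with technical libraries combined. Their RPKM unit was inferred because whole reads came back for 100% of the 18393 named genes above 0, within 0.001 reads.

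Exon calls needed an adjusted p below 0.05 in the deposited table and a mean level of 1 RPKM or more, and genes with no name were left out. Introns were tested with limma 3.58.1 (mean-variance trend, R 4.3.3) on log2(RPKM + 1), at the same minimum mean, with Benjamini-Hochberg adjustment over all genes, and the script was tested on simulated data. Adding 1 RPKM understates the changes of low genes. Zbtb9 introns span Bak1, so their reads may be shared. Full values were given for genes with a 2-fold exon call, the 3 highest in each cell type and every intron call. Single values of some list genes are not reported here. Members, lists and tests were chosen with earlier results of these data known. Alternatives were other minimum levels, pseudocounts, thresholds, centring, no trend, a replicate block and leaving out each replicate. Added after seeing the data were background subtraction, voom weights and leaving out chromosomes with shifted medians. Across genes, the difference between the ESC replicates and that between the NPC replicates had a correlation of 0.0190. With a single difference per cell type, this cannot tell whether replicate numbers marked a shared culture or day. The main test did not pair replicates.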

Additional observations from a re-analysis of the deposited data

How the results depend on the processing

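Exon log2 changes of the 23 called genes kept their direction when taken as ratios of the pooled RPKM, with and without 1 RPKM added. The exon count of lower genes was 9 with at least 2-fold asked for, and that of higher genes 5 of 31 genes without chromosomes whose median was over 0.2 from 0 (chosen after seeing the data). BTB genes under other symbols had 1 higher and 1 lower at a mean of 10 RPKM. On introns, 8 genes were higher with centred columns. Leaving out 1 replicate gave 1 to 6 higher and 6 to 19 lower. There the lone sample is assumed to vary like the other group. The replicate block gave 3 higher and 13 lower, the same 16 calls, and changed none. With no mean-variance trend, and likewise with no minimum mean, 3 were higher and 10 lower, and Zbtb14, Zbtb38 and Zbtb49 were lost. Voom weights on the recovered reads gave 3 higher and 10 lower and lost Zbtb14, Zbtb22 and Zbtb38. Subtracting the receptor background gave 2 higher and 11 lower and lost Zbtb1, Zbtb14 and Zbtb49. Both were chosen after seeing the data. Intron signs were followed for genes with an intron call or a 2-fold exon call, so not for Zbtb33. Among these, signs turned only in genes whose introns were not called. With centred columns they turned for Zbtb41 (0.25) and Zbtb2 (0.14). With 1 replicate left out they turned for Zbtb5 (-0.015 to 0.12, with -0.0047 without ESC replicate 2), Zbtb41 (-0.40 to 0.11) and Zbtb25 (-0.092 to 0.19). With background subtracted the sign turned for Zbtb25 (-0.15). The causes were not tested. The planned count models on recovered reads were not run, since the deposited unit is not counts. Depth limits genes with few intron reads, such as Zbtb3, Zbtb22 and Zbtb32.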
